A study of Mus musculus with 29 samples.

Results

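Loss of the remaining Ezh2 allele was examined in mouse megakaryocyte-erythrocyte progenitors (MEPs) without JAK2 V617F, by setting the 4 RNA-seq libraries titled Ezh2 -/- against the 4 titled Ezh2 +/-, chosen by title from 29 libraries of 6 genotypes. All mice carried the SclCre transgene (also written ScleCre in the labels), in which the control elements of the stem cell leukemia gene Scl drive Cre in blood stem and progenitor cells. The compared groups were SclCre Ezh2 -/- (n = 4, 1 male and 3 female) and SclCre Ezh2 +/- (n = 4, 2 male and 2 female). SclCre mice with both Ezh2 alleles, called Ezh2 +/+ here, served as controls (n = 5, 2 male and 3 female). The same change of genotype was also measured with JAK2 V617F, in SclCre V617F Ezh2 -/- (n = 6, all female) and SclCre V617F Ezh2 +/- (n = 6, all female), with SclCre V617F Ezh2 +/+ as their control (n = 4, 1 male and 3 female). Each library came from 230000 sorted MEPs per the labels, which give no age and do not say which exons the deletion removes. The libraries are described only as replicates there, and the p-values cover no more than their spread, which may be technical. In bulk RNA of this kind, fewer cells of a type and less RNA per cell cannot be told apart.

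EZH2 is the enzyme of Polycomb repressive complex 2 (PRC2) that methylates lysine 27 of histone H3, a mark that keeps developmental and other inactive genes silent. EED and SUZ12 are the core partners that EZH2 needs, EZH1 is its less active paralogue, and PRC1 is the companion complex that reads the mark through its CBX subunits and adds ubiquitin to histone H2A. MEPs are bone marrow progenitors that give rise to red cells and platelets. Loss-of-function mutations of EZH2 occur in human myeloid neoplasms, together with JAK2 V617F among others.

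Below are the promoters of 3 genes that rose in Ezh2 -/- MEPs, a heterochronic RNA-binding protein gene, a PRC1 subunit gene and a cell cycle inhibitor gene, and of a major histocompatibility complex (MHC) class II gene that fell. They are shown because CpG-rich sequence is where PRC2 is known to bind in mammalian cells. The windows hold 250 bases before to 50 bases after an annotated start, from RefSeq on build GRCm38.p6, and CpG dinucleotides are in capitals. The counts themselves were made on mm9, and no coordinates of that build were used.
Lin28b, chr10:45470152-45470451, minus strand: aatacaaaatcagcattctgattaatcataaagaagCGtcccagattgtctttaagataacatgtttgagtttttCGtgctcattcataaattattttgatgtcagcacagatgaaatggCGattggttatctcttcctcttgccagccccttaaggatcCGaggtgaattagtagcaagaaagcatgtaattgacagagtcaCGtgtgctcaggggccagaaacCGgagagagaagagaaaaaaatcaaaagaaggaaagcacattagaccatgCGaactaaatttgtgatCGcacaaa
Bmi1, chr2:18676768-18677067, plus strand: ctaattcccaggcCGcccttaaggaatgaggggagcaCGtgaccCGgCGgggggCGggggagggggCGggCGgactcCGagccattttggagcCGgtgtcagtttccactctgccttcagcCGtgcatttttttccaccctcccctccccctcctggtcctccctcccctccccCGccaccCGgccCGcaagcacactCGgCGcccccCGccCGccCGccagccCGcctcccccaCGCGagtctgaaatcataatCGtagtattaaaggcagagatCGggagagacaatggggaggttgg
Cdkn2a, chr4:89294570-89294869, minus strand, the first of 2 listed starts: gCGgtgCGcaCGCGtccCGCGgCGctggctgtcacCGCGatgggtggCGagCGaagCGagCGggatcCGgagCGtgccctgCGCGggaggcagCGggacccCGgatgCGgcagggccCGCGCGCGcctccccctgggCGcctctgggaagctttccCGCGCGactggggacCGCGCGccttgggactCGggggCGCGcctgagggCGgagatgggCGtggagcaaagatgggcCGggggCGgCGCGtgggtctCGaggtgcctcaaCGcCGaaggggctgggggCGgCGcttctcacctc
H2-Eb1, chr17:34305617-34305916, plus strand: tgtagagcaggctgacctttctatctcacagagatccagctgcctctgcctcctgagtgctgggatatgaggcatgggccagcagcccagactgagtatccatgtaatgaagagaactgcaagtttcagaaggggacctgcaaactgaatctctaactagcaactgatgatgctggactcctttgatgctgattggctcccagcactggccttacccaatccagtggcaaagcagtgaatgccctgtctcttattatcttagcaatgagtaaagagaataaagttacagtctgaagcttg
The Cdkn2a window held 45 CpGs, and 1.88% of the 300-base windows in the table held as many. The Bmi1 window held 23 (21.6% of windows), the Lin28b window 8 (49%) and the H2-Eb1 window 0. The window of Cd27, a gene that fell and whose sequence is not shown, held 7 (52.3%), about as many as that of Lin28b. These counts describe the sequence only, since neither DNA methylation nor PRC2 binding was measured. A count over all genes that changed was not made, because the table held a window for only 78.6% of the 13928 tested genes.

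Total counts were 47.8 to 56.7 M in Ezh2 -/- and 39.6 to 51.9 M in Ezh2 +/- libraries, and a floor of 3 counts equals 0.0529 to 0.0757 CPM (counts scaled to a library of 1 M) in these libraries, for counting error only. Levels are CPM adjusted by the trimmed mean of M values (TMM). Changes are log2 fold changes ± SE of Ezh2 -/- over Ezh2 +/- unless another pair is named, and adjusted p-values are Benjamini-Hochberg values from edgeR's quasi-likelihood test over all 13928 genes tested, called below 0.05. The sex seen in the X- and Y-linked transcripts matched the label in 29 of 29 libraries. The first principal component of the 8 libraries held 49.4% of the variance and separated the genotypes, and the second, with 23.4%, spread the Ezh2 +/- libraries. Among those, replicates 2 and 5 held the highest levels of granulocyte, monocyte, T cell and stem cell genes. Cd34, a surface protein of stem and early progenitor cells, measured 0.57, 0.721, 0.385 and 0.644 CPM in Ezh2 -/- replicates 1 to 4, against 0.857, 36.6, 1.63 and 35.5 CPM in Ezh2 +/- replicates 1, 2, 4 and 5. Replicates 2 and 5 are also the 2 females of the Ezh2 +/- group, so a fit of females alone rests on them and a fit without them sets only male Ezh2 +/- libraries against Ezh2 -/-, with sex as a term estimated over all groups. Most of the decreases, and many of the increases, lost their call without replicates 2 and 5, and values without them are given beside the results they touch.

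Ezh2 RNA fell with the labelled genotype. It measured 79.5, 77.5, 68.9 and 67.9 CPM in the Ezh2 -/- libraries, against 197, 190, 188 and 195 CPM in the Ezh2 +/- libraries. The groups did not overlap, the change was -1.38 ± 0.09 (adjusted p = 5.27e-11), and the Ezh2 -/- level was 0.384 times that of Ezh2 +/-. Controls held 269 to 319 CPM. The counts cover the whole gene, so transcripts that lack the deleted part still count.

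Pbx3, a homeodomain transcription factor of the TALE family that partners Hox proteins, rose. Pbx3 measured 32.7, 31.2, 32 and 32.8 CPM in Ezh2 -/- libraries, against 13.7, 12.6, 13.4 and 13.4 CPM in Ezh2 +/- libraries, with no overlap (1.25 ± 0.11, adjusted p = 6.5e-09). Controls held 8.3 to 9.13 CPM, below both groups. Ezh2 and Pbx3 were also the 2 genes called between Ezh2 +/- and Ezh2 +/+ libraries, which is 0.0144% of the genes tested. There the changes, Ezh2 +/- over Ezh2 +/+, were -0.66 for Ezh2 (adjusted p = 0.000654) and 0.63 for Pbx3 (adjusted p = 0.0182). The Pbx3 call of that comparison was lost in 9 of 21 alternatives, among them library totals in place of TMM (adjusted p = 0.0947) and leaving out Ezh2 +/- replicate 1 (adjusted p = 0.161), 4 (0.146) or 5 (0.0731). The Ezh2 call was lost in 2 of 21, with female libraries only and without Ezh2 +/- replicates 2 and 5. In that comparison 384 genes reached an unadjusted p below 0.05 and DESeq2 called 6. It shares the Ezh2 +/- libraries with the one described here, so both are given side by side only. Between Ezh2 -/- and Ezh2 +/+ libraries 3307 genes were called, or 23.7%.

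Lin28b, an RNA-binding protein that blocks maturation of let-7 microRNAs and is typical of fetal blood cells, was near the floor in Ezh2 +/- libraries and clearly expressed in Ezh2 -/- libraries. Lin28b measured 14.3, 8.51, 13.3 and 19.8 CPM in Ezh2 -/- libraries, against 0.159, 0.0679, 0.131 and 0.0976 CPM in Ezh2 +/- libraries, where 21 counts stood behind all 4 values. The change was 7.06 ± 0.35 (adjusted p = 2.23e-13), and controls lay between 0.0293 and 0.165 CPM. Between Ezh2 +/- and Ezh2 +/+ libraries Lin28b was not called (0.17, adjusted p = 1).

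**Figure D1:**
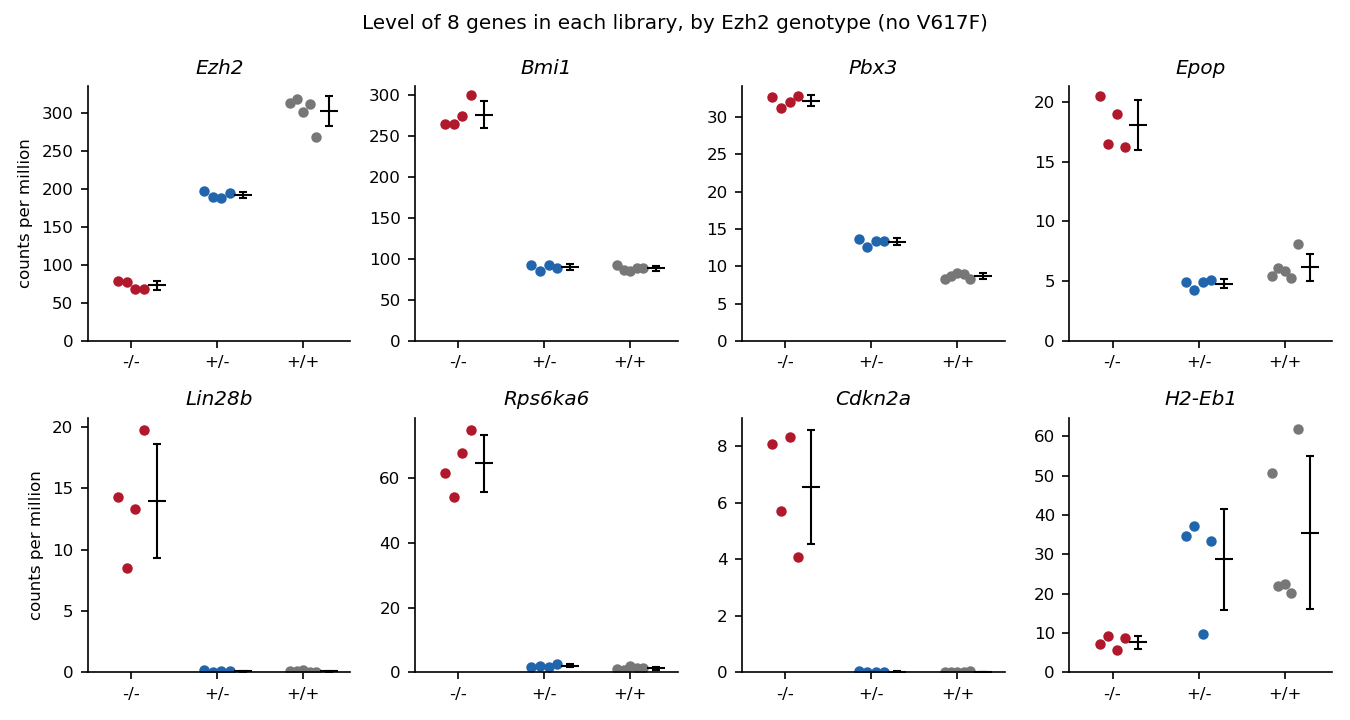
CPM of 8 genes in each library of the Ezh2 -/- (n = 4), Ezh2 +/- (n = 4) and Ezh2 +/+ (n = 5) groups without V617F. Points are libraries, bars are means with SD, and each panel has its own axis from 0. Ezh2 and Pbx3 have 3 separate levels, Bmi1, Epop, Lin28b, Rps6ka6 and Cdkn2a are high only in the Ezh2 -/- libraries, and H2-Eb1 is low there, with 1 Ezh2 +/- library (9.7 CPM) near them.

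Across the transcriptome 1717 of 13928 genes were called (12.3%), of which 995 were higher (7.14%) and 722 lower (5.18%) in Ezh2 -/- MEPs. Calls in the gene lists below are to be set against these shares. Of the called genes, 537 rose and 254 fell by at least 2-fold, and the median change was 1.13 among the higher and -0.51 among the lower genes. All 4 Ezh2 -/- libraries lay above all 4 Ezh2 +/- libraries for 1393 genes (10%) and below them for 1105 genes (7.93%).

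The increases concentrated in genes of low level in controls. The median Ezh2 +/+ level was 3.79 CPM for the 995 genes that rose, 23.4 CPM for the 722 that fell and 23.7 CPM for all genes tested. Among genes under 0.5 CPM in controls 13.9% rose and 3.4% fell, with medians of 2.60 and -2.63. Between 0.5 and 2 CPM the medians were 1.54 and -1.97, between 2 and 10 CPM 0.96 and -1.33, and between 10 and 50 CPM 0.47 and -0.39, with increases first. Up to 10 CPM the median of the decreases was thus farther from 0 than that of the increases at the same control level. Among genes of at least 50 CPM in controls 1.99% rose and 4.89% fell, with medians of 0.31 and -0.26. A gene near background in Ezh2 +/- and Ezh2 +/+ could enter the fit through its Ezh2 -/- libraries, so these shares are a description.

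Of 491 X-linked genes 56 rose (11.4%) and 19 fell, and the share that rose on single autosomes was 4.5 to 9.98%. In the fit of female libraries alone 42 of 499 X-linked genes rose (8.42%), against 4.4% of all genes tested there. The shares without Ezh2 +/- replicates 2 and 5 were 6.8% and 3.66%. The difference between X-linked and other genes was not tested.

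**Figure D2:**
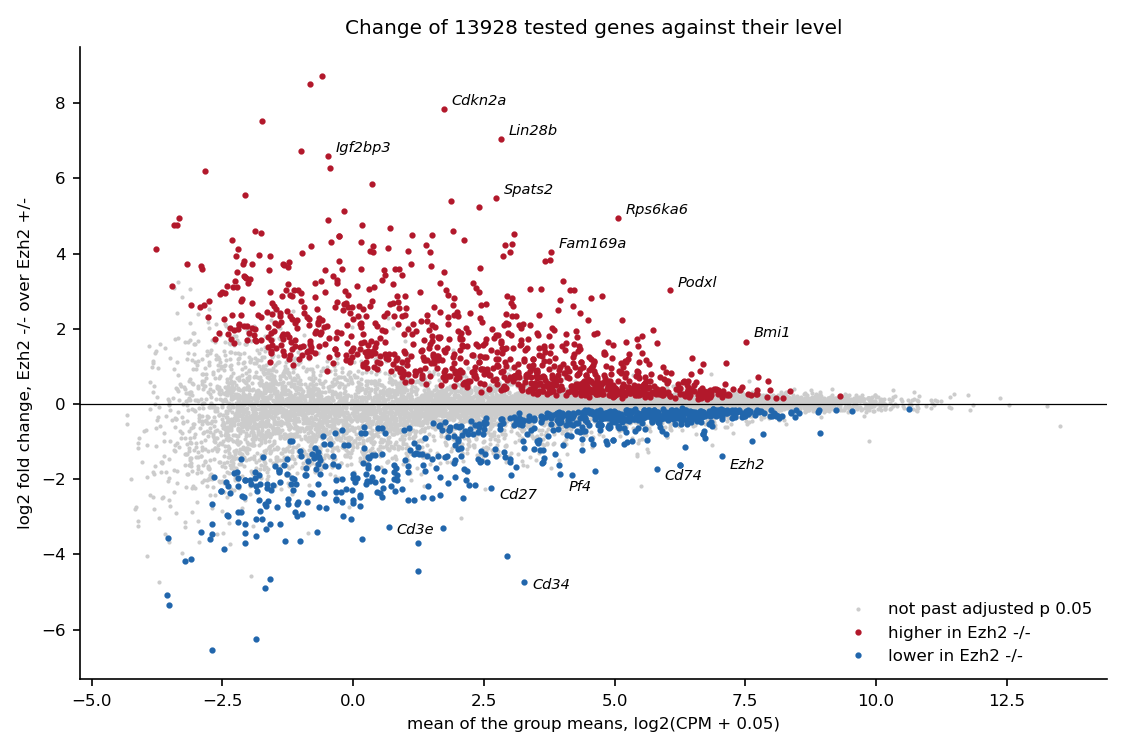
Log2 fold change of Ezh2 -/- over Ezh2 +/- for each of the 13928 genes against the mean of the Ezh2 -/- and Ezh2 +/- levels, log2(CPM + 0.05). Red points are the 995 genes that rose, blue points the 722 that fell and grey points those not called; large increases lie mostly at low levels.

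The calls differed in how firmly they stood. Leaving out 1 of the 8 libraries at a time, 653 of the 995 increases (65.6%) were called in all 8 fits, but only 182 of the 722 decreases (25.2%). Without Ezh2 +/- replicates 2 and 5 there were 521 increases and 81 decreases. Of these, 511 increases and 77 decreases were shared with the full fit, or 51.4% of its increases and 10.7% of its decreases. Without Ezh2 +/- replicate 5 alone there were 288 decreases, without Ezh2 -/- replicate 3 there were 307, without Ezh2 -/- replicate 1 there were 456 and without Ezh2 +/- replicate 1 there were 477.

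Among the 12 PRC2 genes Epop and Phf19 rose and Ezh2 fell, against a median of -0.04. Epop, an elongin-binding accessory subunit, measured 20.5, 16.5, 19 and 16.2 CPM in Ezh2 -/- libraries, against 4.94, 4.25, 4.89 and 5.09 CPM in Ezh2 +/- libraries (1.90 ± 0.18, adjusted p = 1.8e-08). Phf19, a Polycomb-like subunit that reads methylated histone H3, measured 31.3 ± 1.87 CPM in Ezh2 -/- and 19.6 ± 2.37 CPM in Ezh2 +/- libraries (SD, n = 4 each; 0.66 ± 0.11, adjusted p = 0.000149). The core partners were not called. Suz12 averaged 379 CPM in Ezh2 -/- and 370 CPM in Ezh2 +/- libraries (0.06 ± 0.08), Eed 96.2 and 105 CPM (-0.10 ± 0.09), and the paralogue Ezh1 31 and 33.7 CPM (-0.13 ± 0.09), with adjusted p-values of 0.721, 0.546 and 0.405 in that order.

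Of 21 PRC1 subunit genes tested, 4 rose and 1 fell, against 7.14% and 5.18% of all genes, with a median of 0.11. Bmi1, the PCGF4 subunit of canonical PRC1 and a repressor of Cdkn2a, measured 265, 265, 274 and 300 CPM in Ezh2 -/- libraries, against 93, 85.6, 92.2 and 88.5 CPM in Ezh2 +/- libraries. The groups did not overlap and the level was 3.11-fold higher in Ezh2 -/- (1.64 ± 0.06, adjusted p = 1.6e-16), and controls held 85.1 to 92.9 CPM. The chromodomain subunits Cbx2 (1.05 ± 0.08, adjusted p = 8.61e-10) and Cbx6 (0.58 ± 0.06, adjusted p = 1.59e-07) rose, and so did Scmh1 (0.36 ± 0.07, adjusted p = 0.00107). None of 18 genes for histone H3 lysine 27 demethylases and trithorax-type activators was called in edgeR or DESeq2, 0 had an unadjusted p under 0.05 in edgeR and 1 in DESeq2, and their median was -0.04.

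Rps6ka6 had the largest increase among well-expressed genes. This gene, the X-linked gene of the ribosomal S6 kinase RSK4, measured 61.7, 54.2, 67.6 and 75 CPM in Ezh2 -/- libraries, against 1.67, 2.01, 1.68 and 2.63 CPM in Ezh2 +/- libraries (4.94 ± 0.34, adjusted p = 7.25e-11). Fam169a measured 21.5, 24.6, 27.5 and 29.7 CPM in Ezh2 -/-, against 1.14, 1.76, 1.89 and 1.48 CPM in Ezh2 +/- libraries (4.04 ± 0.30). Podxl, the sialomucin podocalyxin of the CD34 family, measured 131, 74.7, 134 and 133 CPM in Ezh2 -/-, against 10.8, 17.3, 12.1 and 17.7 CPM in Ezh2 +/- libraries (3.02 ± 0.22, adjusted p = 1.65e-10). In all 3 genes every Ezh2 -/- library was several-fold above every Ezh2 +/- library.

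The same rule, the 12 largest increases without overlap and averaging at least 2 in log2 CPM, also named Hs6st2 (3.82 ± 0.28), a heparan sulfate sulfotransferase, Cnnm1 (3.80 ± 0.32), Hdgfl3 (3.27 ± 0.49) and Pik3c2a (3.06 ± 0.36), a class II phosphoinositide 3-kinase. It further named Zfp462 (3.06 ± 0.36), the imprinted retrotransposon-derived Peg10 (3.03 ± 0.24), Ugt8a (3.02 ± 0.22), which makes galactosylceramide, the RNA-binding protein gene Khdrbs3 (2.87 ± 0.17) and the kinesin gene Kif21a (2.87 ± 0.28). Their adjusted p-values ran between 6.84e-12 for Khdrbs3 and 2.42e-05 for Hdgfl3. All 12 remained called without Ezh2 +/- replicates 2 and 5.

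In 50 genes expression appeared, meaning under 0.5 CPM in every Ezh2 +/- library, over 1 CPM in every Ezh2 -/- library and a call, and in 2 it disappeared by the reverse rule. After Lin28b, the 7 with the highest Ezh2 -/- means were Spats2 (13 ± 1.22 CPM in Ezh2 -/-, 0.27 ± 0.114 CPM in Ezh2 +/-), the fibroblast growth factor gene Fgf13 (10.3 ± 1.72 and 0.264 ± 0.0946 CPM) and the Src-family kinase gene Yes1 (7.16 ± 1.53 and 0.274 ± 0.108 CPM), with Ezh2 -/- first and SD over 4 libraries each. The others were Pcolce2, Cdkn2a, Mpped2 and the tetraspanin gene Tspan12, at 7.06, 6.55, 5.39 and 5.14 CPM in Ezh2 -/- and 0.153, 0.0206, 0.235 and 0.306 CPM in Ezh2 +/- libraries. The genes that disappeared were Cd3e, the epsilon chain of the T cell receptor complex, and the lens membrane protein gene Lim2. Lim2 measured 0.413 ± 0.0789 CPM in Ezh2 -/- and 1.48 ± 0.439 CPM in Ezh2 +/- libraries (SD, n = 4 each; -1.97 ± 0.36, adjusted p = 0.00037).

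Inhibitors of cyclin-dependent kinases mostly rose, with 5 of 8 higher, 1 lower and a median of 0.69. Cdkn2a, which encodes p16Ink4a and p19Arf, measured 8.08, 5.71, 8.33 and 4.08 CPM in Ezh2 -/- libraries, against 0.0598, 0.0226, 0 and 0 CPM in Ezh2 +/- libraries (7.84 ± 0.98, adjusted p = 1.89e-06). The values rest on 1319 counts in Ezh2 -/- and 4 counts in Ezh2 +/- libraries, and the ratio of the pooled levels was 305 with an exact binomial 95% interval of 119 to 1120. That interval covers counting error only, not the spread between libraries. Its neighbour Cdkn2b, encoding p15Ink4b, also rose, to 0.793, 0.783, 1.28 and 1.05 CPM in Ezh2 -/- against 0.259, 0.136, 0.0789 and 0.195 CPM in Ezh2 +/- libraries (2.54 ± 0.39, adjusted p = 3.33e-05). The counts do not separate the p16Ink4a and p19Arf transcripts. Cdkn2a, near background in Ezh2 +/- libraries, could enter the fit through Ezh2 -/- libraries, so the count of 5 is a description.

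Cdkn1c (p57Kip2), Cdkn3 and Cdkn2c (p18Ink4c) rose by smaller or less certain amounts (1.46 ± 0.44, 0.42 ± 0.12 and a change of 0.34), with adjusted p-values of 0.0296, 0.0258 and 0.0346 in that order. Cdkn1b, encoding p27Kip1, fell to 32.1 ± 2.09 CPM in Ezh2 -/-, against 42.2 ± 4.3 CPM in Ezh2 +/- libraries (SD, n = 4 each; -0.42 ± 0.11, adjusted p = 0.00786). The p53-responsive inhibitor gene Cdkn1a, chosen after its values were seen, had 24.1, 19.3, 17.5 and 15.3 CPM in Ezh2 -/-, against 6.9, 6.9, 7.63 and 14.2 CPM in Ezh2 +/- libraries. Its groups did not overlap, yet it missed the threshold (0.96 ± 0.35, adjusted p = 0.0746). Without Ezh2 +/- replicates 2 and 5, the 2 of the 8 inhibitors still called were Cdkn2a (adjusted p = 0.00257) and Cdkn2b (adjusted p = 0.00631). Without Ezh2 +/- replicate 5 alone, and without Ezh2 -/- replicate 3 alone, 3 were called.

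Of 10 fetal-type genes tested 4 rose and 0 fell, with a median of 1.84. Genes of this list near background in Ezh2 +/- libraries could enter the fit through Ezh2 -/- libraries, so the median and the share that rose are a description. Besides Lin28b these were Igf2bp3, Hmga2 and the embryonic globin gene Hba-x. Igf2bp3, an RNA-binding protein and let-7 target, measured 1.44, 0.701, 1.17 and 1.95 CPM in Ezh2 -/- libraries, against 0, 0.0226, 0 and 0.0195 CPM in Ezh2 +/- libraries. With 260 counts in all in Ezh2 -/- and 2 in Ezh2 +/- libraries, the ratio was 120 (exact binomial 95% interval 32.9 to 997, for counting error only), and the fitted change was 6.60 ± 0.74 (adjusted p = 3.58e-07). Hmga2, a chromatin protein and let-7 target, measured 1.83, 1.88, 1.32 and 3.03 CPM in Ezh2 -/-, against 0, 0.158, 0.0263 and 0.215 CPM in Ezh2 +/- libraries (4.32 ± 0.66, adjusted p = 3.39e-05). The changes were 7.07 for Hmga2, 9.02 for Igf2bp3 and 6.61 for Cdkn2a without Ezh2 +/- replicates 2 and 5, all still called. Without replicate 5 alone the change of Hmga2 was 4.94.

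Hba-x stayed near the floor, at 0.488, 0.103, 0.311 and 0.258 CPM in Ezh2 -/- libraries, against 0.0399, 0.0452, 0.0263 and 0 CPM in Ezh2 +/- libraries (3.28 ± 0.72, adjusted p = 0.00234; adjusted p = 0.151 without Ezh2 +/- replicates 2 and 5). Lin28a, the paralogue of Lin28b, had means of 0.0364 CPM in Ezh2 -/- and 0.093 CPM in Ezh2 +/- libraries and was not called (adjusted p = 0.324). Another 6 listed genes, among them the embryonic globins Hbb-bh1 and Hbb-y, Igf2 and H19, were below the filter. Of 19 let-7 target genes 4 were higher and 0 lower with a median of 0.08. They were Lin28b, Igf2bp3, Hmga2 and the cyclin D1 gene Ccnd1, which measured 46.7 ± 7.47 CPM in Ezh2 -/- and 15.8 ± 1.74 CPM in Ezh2 +/- libraries (SD, n = 4 each; 1.56 ± 0.36, adjusted p = 0.00416; adjusted p = 0.168 without Ezh2 +/- replicates 2 and 5). The other let-7 targets, which include Myc (-0.15, adjusted p = 0.459) and Nras (-0.01, adjusted p = 0.935), were not called. Lin28b, Igf2bp3 and Hmga2 are the fetal-type genes already counted. Being near background in Ezh2 +/- libraries, they could enter the fit through Ezh2 -/- libraries, so the count of 4 is a description.

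Few of the classical developmental targets of Polycomb were measurable. Of 60 listed developmental regulators in the files 11 passed the filter, and 12 of the 60, among them Gata4, Sox2, Pax3 and Foxa2, had 0 counts in all 8 libraries. Bmp4, a secreted growth factor, was called higher with means of 0.22 CPM in Ezh2 -/- and 0.0301 CPM in Ezh2 +/- libraries (2.99 ± 0.75, adjusted p = 0.00824), and Tbx3, a T-box repressor, lower with means of 0.0703 and 0.462 CPM in the same order (-2.70 ± 0.63, adjusted p = 0.00422). The Tbx3 groups overlapped, since Ezh2 +/- replicate 4 was at 0.0263 CPM, and its call was lost without Ezh2 +/- replicates 2 and 5 (-1.82, adjusted p = 0.323). The change of Bmp4 without them was 3.76 (adjusted p = 0.0364). Neither gene reached 1 CPM in any of these libraries, and their list's median was -0.01.

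Among TALE and Hox genes, homeodomain regulators of which Pbx, Meis and HoxA members act in blood progenitors, 5 of 25 tested rose and 3 fell. Over all genes these shares were 7.14% and 5.18%, and the median of the list was 0.17. Hoxa4 (1.86 ± 0.22, adjusted p = 5.82e-07) and Meis3 (1.76 ± 0.46, adjusted p = 0.0116) rose besides Pbx3. Hoxa10 rose with a change of 1.29 (adjusted p = 0.0153), and Hoxa9 gave 0.17 (adjusted p = 0.52). Pbx4 (-0.36 ± 0.08), Tgif1 (-0.50 ± 0.12) and Hoxb2 (-1.28 ± 0.42) fell, the last at no more than 1.29 CPM in any library of both groups, and its call was lost in 14 of 22 alternatives. The Tgif1 call was lost without Ezh2 +/- replicates 2 and 5 (adjusted p = 0.0648), and the changes of Meis3 and Hoxb2 were 2.85 and -1.94 there, both called. Meis1, which is high in stem cells and the megakaryocyte lineage, was not called, with means of 10.8 CPM in Ezh2 -/- and 21.5 CPM in Ezh2 +/- libraries (adjusted p = 0.0967).

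Imprinted genes, of which several depend on PRC2 in extraembryonic tissue, gave 12 higher and 1 lower of 30 tested and a median of 0.35; without Ezh2 +/- replicates 2 and 5, 6 were called. Peg10 rose to 34.3, 26.3, 31.4 and 41.5 CPM in Ezh2 -/-, against 3.17, 3.91, 3.58 and 5.15 CPM in Ezh2 +/- libraries. Sfmbt2, itself a Polycomb-group gene, measured 4.52, 4.39, 3.59 and 4.42 CPM in Ezh2 -/-, against 0.319, 0.498, 0.316 and 0.917 CPM in Ezh2 +/- libraries (2.97 ± 0.42, adjusted p = 1.39e-05). Ascl2 (2.68 ± 0.29, adjusted p = 2.51e-07), Snrpn (4.47, adjusted p = 2.88e-05) and the growth factor receptor adaptor Grb10 (0.60 ± 0.09, adjusted p = 1.39e-05) rose too. Peg12, Mest, Sgce, Igf2r, Cdkn1c, Kcnq1 and Ppp1r9a completed the 12. Mcts2 fell by 0.59 ± 0.16 on the log2 scale (adjusted p = 0.0166), a call lost in 8 of 22 alternatives. Dlk1 and Meg3, which lie in 1 imprinted cluster, were not called, with means of 0.12 and 0.0883 CPM in Ezh2 -/- and 0.0351 and 0.343 CPM in Ezh2 +/- libraries. Alleles were not told apart in these counts.

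Of 29 p53 target genes 6 rose and 0 fell, against 7.14% and 5.18% of all genes tested, with a median of 0.17. Phlda3, which restrains AKT signalling, measured 18.4, 15.4, 18.2 and 14.7 CPM in Ezh2 -/-, against 4.23, 4.25, 4.44 and 3.14 CPM in Ezh2 +/- libraries (2.10 ± 0.16, adjusted p = 5.86e-10). Zmat3 (1.11 ± 0.14), the death receptor gene Tnfrsf10b (1.24 ± 0.19) and Eda2r (1.13 ± 0.21) followed, then Ccng1 (0.38, adjusted p = 0.00143) and Ei24 (0.26, adjusted p = 0.00392). Mdm2, the feedback regulator of p53, was not called, at 76.2 CPM in Ezh2 -/- and 75.8 CPM in Ezh2 +/- libraries (adjusted p = 0.772), and Bax gave 0.17 (adjusted p = 0.27).

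Cell cycle genes shifted little. The repressor E2f7 (0.88 ± 0.15, adjusted p = 0.000103) and Ccnd1 rose and Rfc2 fell among 63 tested. Over all genes tested 7.14% rose and 5.18% fell. The Rfc2 call was lost in 17 of 22 alternatives. In total 58 of the 63 had a positive change although 60 missed the threshold, and the median of 0.15 lay above the median of -0.01 over all genes. It stayed between 0.14 and 0.15 under each scaling tried but was 0.04 with lineage scores as covariates. Of 26 serine synthesis and ATF4 target genes 5 rose and 2 fell, and 1 was called without Ezh2 +/- replicates 2 and 5. The largest increase was of Cth, a transsulfuration enzyme, at 10.7 ± 1.17 CPM in Ezh2 -/- and 3.33 ± 0.573 CPM in Ezh2 +/- libraries (SD, n = 4 each; 1.67 ± 0.20, adjusted p = 1.24e-06). Of 63 cytosolic ribosomal protein genes 0 rose and 2 fell (Rpl38 and Rps19), with a median of -0.10 and 61 changes below 0. Both calls were lost without Ezh2 +/- replicates 2 and 5 (adjusted p = 0.0868 and 0.348), where 9 of the 63 had an unadjusted p below 0.05.

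**Figure D3:**
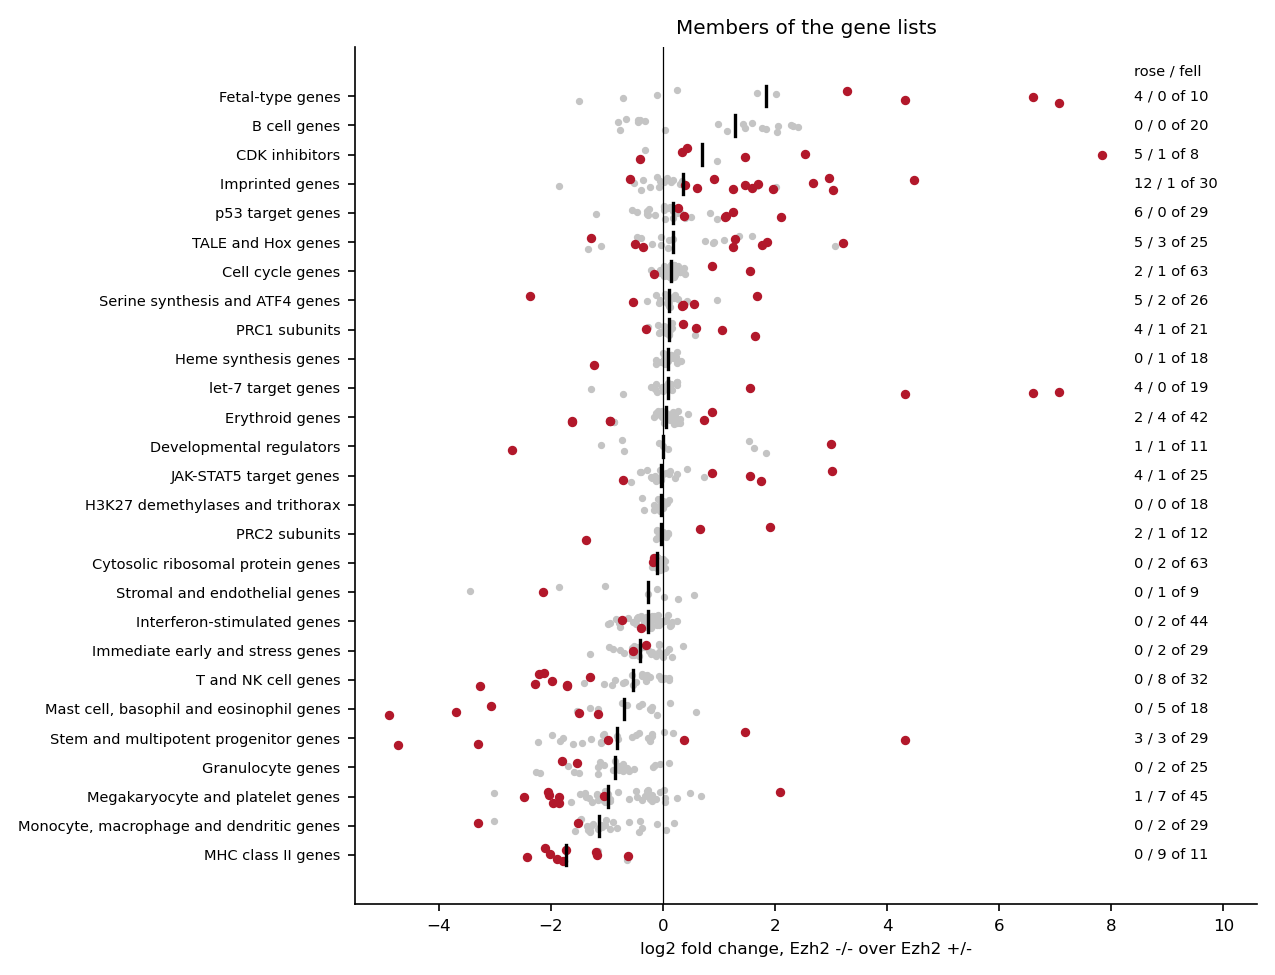
Log2 fold change of Ezh2 -/- over Ezh2 +/- for the tested members of each of 27 gene lists. Red points passed an adjusted p of 0.05, grey points did not, black bars are medians, and the text at the right gives how many rose and fell of how many tested. Fetal-type genes and kinase inhibitors have the highest medians of lists with increases called, and MHC class II genes the lowest median. Genes near background in Ezh2 +/- libraries, among them fetal-type genes and Cdkn2a, could enter the fit through Ezh2 -/- libraries.

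The libraries expressed the markers of MEPs. Of all genes tested edgeR called 12.3%. None of 11 marker genes was called in edgeR or DESeq2, where each had 1 with an unadjusted p below 0.05, and Gata1, the master regulator of the lineage, averaged 283 ± 19.2 CPM in Ezh2 -/- and 253 ± 26.2 CPM in Ezh2 +/- libraries (SD, n = 4 each; 0.19 ± 0.10, adjusted p = 0.229). The erythroid regulator Klf1 (316 and 268 CPM), the receptor genes Kit (495 and 542 CPM) and Epor (165 and 168 CPM), with Ezh2 -/- first, gave adjusted p-values of 0.302, 0.581 and 0.957. Itga2b, also among the 11, had a larger change of -1.27 (adjusted p = 0.0792) and was called in 3 of 22 alternatives.

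Of 42 erythroid genes 2 rose and 4 fell, with a median of 0.05. The share called was near the 12.3% of all genes tested. Sptb, which encodes erythroid beta-spectrin, rose to 282, 233, 283 and 264 CPM in Ezh2 -/-, against 158, 178, 162 and 142 CPM in Ezh2 +/- libraries (0.73 ± 0.19, adjusted p = 0.0114), and Erfe, the hormone erythroferrone, rose with overlap (0.88 ± 0.26, adjusted p = 0.0256). The 4 lower genes were adult beta-globins, counted as 2 pairs with identical counts (Hbb-b1 with Hbb-bs, Hbb-b2 with Hbb-bt), so they amount to 2 measurements. Hbb-b1 measured 46.4, 33.8, 47.6 and 27.9 CPM in Ezh2 -/-, against 69.8, 88.3, 45.8 and 249 CPM in Ezh2 +/- libraries, and its call ended without Ezh2 +/- replicate 5 (adjusted p = 0.144). Without that library edgeR called 0 of the 42 genes, of which 5 reached an unadjusted p below 0.05, and without Ezh2 +/- replicate 1 or Ezh2 -/- replicate 1, 3 or 4 it called 3. The Sptb call was lost without Ezh2 +/- replicates 2 and 5 (adjusted p = 0.17). Alas2, the erythroid heme synthesis enzyme, was the 1 of 18 heme genes to be called (-1.23 ± 0.34, adjusted p = 0.0152; adjusted p = 0.177 without Ezh2 +/- replicate 5). That share was no higher than the 12.3% of all genes tested.

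Of 45 megakaryocyte and platelet genes 7 fell and 1, the myosin light chain gene Myl9, rose, with a median of -0.99. Pf4, platelet factor 4, measured 7.1, 9.46, 5.57 and 7.58 CPM in Ezh2 -/-, against 9.55, 21.7, 22.7 and 40.7 CPM in Ezh2 +/- libraries (-1.85 ± 0.55, adjusted p = 0.0247). The groups did not overlap, but Ezh2 +/- replicate 1 came close to the Ezh2 -/- range. Selp, the platelet adhesion receptor P-selectin (-2.49 ± 0.68), Tbxas1, thromboxane synthase (-2.03 ± 0.58), and Rgs18 (-1.05 ± 0.31) fell as well, while Itga2b, the fibrinogen receptor chain CD41, missed the threshold (-1.27 ± 0.47, adjusted p = 0.0792). The summed level of the list was 897 to 1132 CPM in Ezh2 -/- and 1062 to 1789 CPM in Ezh2 +/- libraries, highest in replicate 5. Without Ezh2 +/- replicates 2 and 5 the list kept a median of -1.02 and 0 members were called, and 10 reached an unadjusted p below 0.05. Without Ezh2 +/- replicate 5, Ezh2 -/- replicate 1 or Ezh2 -/- replicate 3 alone 1 member was called, without Ezh2 -/- replicate 2 there were 3 and without Ezh2 -/- replicate 4 there were 15.

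MHC class II genes, which antigen-presenting cells and some progenitors express, had the lowest median of the 27 lists, -1.73, with 9 of 11 lower and 0 higher. H2-Eb1 measured 7.18, 9.38, 5.58 and 8.66 CPM in Ezh2 -/-, against 34.6, 37.2, 9.7 and 33.4 CPM in Ezh2 +/- libraries (-1.90 ± 0.55, adjusted p = 0.0213). Ciita, the master activator of class II genes, measured 1.34, 1.69, 1.15 and 1.05 CPM in Ezh2 -/-, against 7, 8.1, 1.89 and 5.64 CPM in Ezh2 +/- libraries (-2.10 ± 0.52, adjusted p = 0.00732). In both genes the groups were separate and Ezh2 +/- replicate 4 stood closest to the Ezh2 -/- libraries. H2-Aa (-1.78 ± 0.55), H2-Eb2 (-2.42 ± 0.58), H2-DMb1 (-1.18 ± 0.30), H2-DMb2 (-2.01 ± 0.53) and the invariant chain gene Cd74 (-1.73 ± 0.53) also fell. The list summed to 83.8 to 122 CPM in Ezh2 -/- and 131 to 319 CPM in Ezh2 +/- libraries, and none of its genes was at 0. Its median was -1.05 without Ezh2 +/- replicates 2 and 5, where 0 of 11 were called and 4 had an unadjusted p under 0.05. Without Ezh2 +/- replicate 5 alone 3 were called, without Ezh2 -/- replicate 3 alone 2 and without Ezh2 -/- replicate 1 alone 5.

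T and NK cell genes gave 8 of 32 lower, 0 higher and a median of -0.54, with Cd3e at 0.427, 0.268, 0.146 and 0.365 CPM in Ezh2 -/-, against 1.36, 4.61, 1.55 and 3.69 CPM in Ezh2 +/- libraries (-3.26 ± 0.49, adjusted p = 2.93e-05). Cd3e was the 1 member still called without Ezh2 +/- replicates 2 and 5 (adjusted p = 0.00632), and 7 had an unadjusted p below 0.05. The median of the list was -0.15 there. It was 0.20 with lineage scores as covariates, where 20 of the 32 changes were above 0. The list is itself among those scores, so that fit cannot measure its shift. Without Ezh2 +/- replicate 5, Ezh2 -/- replicate 1 or Ezh2 -/- replicate 3 alone 5 members were called, and without Ezh2 -/- replicate 4 there were 14. The summed level of this list was 112 to 194 CPM in Ezh2 -/- and 111 to 318 CPM in Ezh2 +/- libraries. Granulocyte genes (2 of 25 lower, median -0.86) summed to 31.8 to 109 CPM in Ezh2 -/- and 55.7 to 381 CPM in Ezh2 +/- libraries. Monocyte, macrophage and dendritic genes (2 of 29 lower, median -1.14) summed to 244 to 282 and 251 to 561 CPM in the same order. The number lower in both lists was near the 5.18% of all genes tested. Without Ezh2 +/- replicates 2 and 5, 0 members of either myeloid list were called, 0 had an unadjusted p under 0.05, and the medians were -0.14 and -0.16.

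Mast cell, basophil and eosinophil genes gave 5 of 18 lower and a median of -0.69, led by Fcer1a, a chain of the IgE receptor, with 4 counts in all in Ezh2 -/- and 94 in Ezh2 +/- libraries (adjusted p = 0.00144). Without Ezh2 +/- replicates 2 and 5, 0 of the list were called and 2 had an unadjusted p under 0.05. For Fcer1a the ratio of these pooled levels was 0.0393 with an exact binomial 95% interval of 0.0105 to 0.104, for counting error only. Stem and multipotent progenitor genes gave 3 higher (Hmga2, Mllt3 and Cdkn1c), 3 lower (Cd34, Sox4 and Flt3) of 29 and a median of -0.83. Over all genes tested 7.14% were higher and 5.18% lower. For Cd34 the change was -4.73 ± 1.09 (adjusted p = 0.00403), and -2.59 without Ezh2 +/- replicates 2 and 5 (adjusted p = 0.445). The calls of Sox4 (adjusted p = 0.116), Flt3 (0.503) and Mllt3 (0.253) were also lost there, and the median of the list was -0.47. B cell genes gave 0 calls of 20 in edgeR and in DESeq2, where each had 9 with an unadjusted p below 0.05. All Ezh2 -/- libraries lay above all Ezh2 +/- libraries for 1 of the 20, and for 10% of all genes tested. The median of the B cell genes was 1.28. They summed to 14.7 to 64 CPM in Ezh2 -/- and 9.71 to 27.7 CPM in Ezh2 +/- libraries. In none of these lists were markers at 0 in the Ezh2 -/- libraries, and the part of other cells in the decreases was not tested.

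The largest decreases of single genes included many genes of these lineages. By the rule used for increases they were Cd27, a tumour necrosis factor receptor family member of lymphoid and early progenitor cells, Alox5ap, which leukotriene synthesis needs, H2-Eb1, Pf4, H2-Aa, Cd74, Sla, Fxyd5, the histone gene H2bc8, Spi1, Mdga1 and Slc28a2. Cd27 measured 1.81, 2.58, 1.7 and 2.73 CPM in Ezh2 -/-, against 5.36, 13.1, 5.55 and 16.9 CPM in Ezh2 +/- libraries (-2.22 ± 0.49, adjusted p = 0.00263). Spi1, the myeloid and lymphoid regulator PU.1, measured 3.21, 3.36, 2.11 and 2.51 CPM in Ezh2 -/-, against 5.5, 9.8, 3.71 and 12.4 CPM in Ezh2 +/- libraries (-1.55 ± 0.41, adjusted p = 0.0116). In Cd27 and Spi1 the groups were separate, and Ezh2 +/- replicates 2 and 5 were the 2 highest libraries. Without those libraries 0 of the 12 decreases were called and all 12 were still negative. Without Ezh2 +/- replicate 5 alone, and without Ezh2 -/- replicate 3 alone, 3 were called, without Ezh2 -/- replicate 1 alone 4 and without Ezh2 -/- replicate 2 alone 6.

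**Figure D4:**
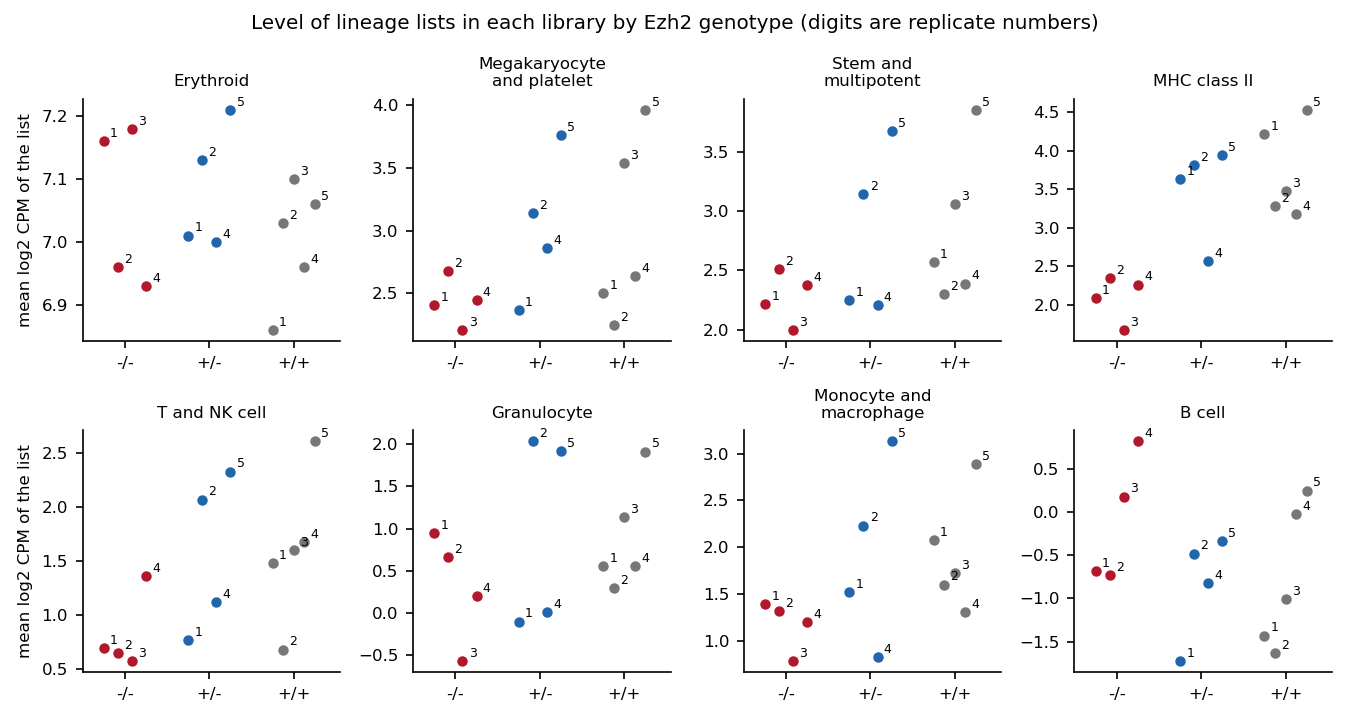
Mean log2 CPM of 8 lineage gene lists in each library of the Ezh2 -/-, Ezh2 +/- and Ezh2 +/+ groups without V617F, with replicate numbers beside the points and separate vertical axes that do not start at 0. For megakaryocyte, stem, T cell and myeloid lists replicates 2 and 5 are the highest of the Ezh2 +/- libraries and replicate 5 the highest of the Ezh2 +/+ libraries, and for MHC class II genes the Ezh2 -/- libraries lie below all others.

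Calls in signalling lists are set against the 7.14% higher and 5.18% lower of all genes tested. The share of JAK-STAT5 targets that rose was above the first of these. Of 25 JAK-STAT5 target genes 4 rose and 1 fell, with Socs2, a feedback inhibitor of cytokine receptors, at 7.08, 3.89, 7.47 and 6.77 CPM in Ezh2 -/-, against 1.59, 2.19, 1.45 and 1.95 CPM in Ezh2 +/- libraries (1.74 ± 0.31, adjusted p = 0.000275). Podxl, Ccnd1 and Erfe were the other increases and the kinase gene Pim1 the decrease (-0.71 ± 0.19, adjusted p = 0.0148), which ended without Ezh2 +/- replicate 5 (adjusted p = 0.18). Of 44 interferon-stimulated genes 0 rose and 2 fell (Ifi47 and Stat2), the latter near the 5.18% of all genes, with a median of -0.26. Their median was 0.03 without Ezh2 +/- replicates 2 and 5, and 0 were called by edgeR, with 2 at an unadjusted p below 0.05. Without replicate 5 alone 0 were called and 3 had such a p. Of 29 immediate early and stress genes 0 rose and 2 fell (Ddit3 and Gadd45a), near the 5.18% of all genes, with a median of -0.42. Those calls were lost without replicates 2 and 5 (adjusted p = 0.193 and 0.616) and without replicate 5 alone (0.0955 and 0.129), with a median of -0.19 in the first of these fits. Stromal and endothelial genes gave 1 lower of 9, the endothelial receptor kinase Tie1 (-2.14 ± 0.64, adjusted p = 0.0267; adjusted p = 0.244 without Ezh2 +/- replicates 2 and 5). Jak2 itself was slightly lower with overlap, at 179, 188, 165 and 177 CPM in Ezh2 -/-, against 208, 188, 188 and 209 CPM in Ezh2 +/- libraries (-0.17 ± 0.05, adjusted p = 0.0392), a call lost in 15 of 22 alternatives.

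The same change of genotype in V617F mice was measured in 12 other libraries, with 1852 genes higher (13.3%) and 1781 lower (12.8%) in V617F Ezh2 -/- than in V617F Ezh2 +/- libraries. With library totals in place of TMM these were 2177 and 756. Of the 995 genes that rose without V617F, 787 (79.1%) also rose with it, 0 fell, and these 787 were 42.5% of the increases with V617F. Of the 722 that fell without V617F, 179 (24.8%) also fell and 26 rose, and the 179 were 10.1% of the decreases with V617F. The median change of the 995 was 0.82 with and 1.13 without V617F. That of the 722 was -0.08 with and -0.51 without V617F. Both sets were chosen by their call without V617F, which favours larger changes there, so these medians do not compare the effects. The difference between both effects was called for 149 genes (1.07%), of which 35 were among the increases and 62 among the decreases. It was above 0 for 114 and below 0 for 35 of the 149, but above 0 for 34 and below 0 for 186 genes with lineage scores as covariates. Leaving out Ezh2 +/- replicates 2 and 5, that difference was called for 7 genes, and leaving out 1 library at a time gave 38 to 415, the lowest without Ezh2 +/- replicate 2 and the highest without Ezh2 -/- replicate 4.

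For 5 of the increases described first the difference between the effects was not called. Bmi1 averaged 270 ± 20.5 CPM in V617F Ezh2 -/- and 90.9 ± 5.71 CPM in V617F Ezh2 +/- libraries (SD, n = 6 each; 1.57 ± 0.05), and the difference between the effects was -0.06 ± 0.07 (adjusted p = 0.562). Pbx3 averaged 36.8 ± 1.82 and 16.7 ± 0.4 CPM in the same order, with a difference of -0.11 ± 0.14 (adjusted p = 0.614). Lin28b averaged 30 ± 6 CPM in V617F Ezh2 -/- and 0.0772 ± 0.0546 CPM in V617F Ezh2 +/- libraries, and its difference of 1.53 ± 0.54 was not called (adjusted p = 0.124). Epop (-0.31 ± 0.22, adjusted p = 0.363) and Cdkn2a (-1.96 ± 1.52, adjusted p = 0.39) gave differences that were not called, with a wide error for Cdkn2a.

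Among genes averaging at least 2 in log2 CPM, the 5 largest differences below 0 were of genes that rose without V617F and rose less, or were not called, with it. Podxl averaged 318 ± 46.9 CPM in V617F Ezh2 -/- and 233 ± 48.2 CPM in V617F Ezh2 +/- libraries (SD, n = 6 each; 0.44 ± 0.16), both above the 118 ± 29.1 CPM of the Ezh2 -/- libraries without V617F (SD, n = 4). Its effect with V617F minus that without was -2.58 ± 0.27 (adjusted p = 6.94e-06). Rps6ka6 (-1.67 ± 0.39, adjusted p = 0.0334), Hs6st2 (-1.68 ± 0.33, adjusted p = 0.0151), Fam124a (-2.40 ± 0.40, adjusted p = 0.00541) and the carboxypeptidase gene Cpd (-1.47 ± 0.25, adjusted p = 0.00585) had called differences of the same sign. Rps6ka6 still rose with V617F, at 57.3 ± 7.3 CPM in V617F Ezh2 -/- and 5.94 ± 1.84 CPM in V617F Ezh2 +/- libraries. Cpd did not, at 213 ± 41.1 and 252 ± 67.2 CPM in that order (-0.24 ± 0.15, adjusted p = 0.239).

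Genes of MHC class II and T cells differed in the other direction. Of the 114 differences above 0, 3 were still called without Ezh2 +/- replicates 2 and 5, and 21 with lineage scores as covariates. Those scores include the T and NK cell list. H2-Eb1 averaged 10.7 ± 6.29 CPM in V617F Ezh2 -/- and 5.45 ± 4.29 CPM in V617F Ezh2 +/- libraries (SD, n = 6 each; 0.97 ± 0.45, adjusted p = 0.105), so the effect with V617F minus that without was 2.87 ± 0.70 (adjusted p = 0.0447). H2-Aa (2.88 ± 0.71, adjusted p = 0.0448), Cd74 (2.80 ± 0.69, adjusted p = 0.0465), the T cell factor gene Tcf7 (2.58 ± 0.63, adjusted p = 0.0447) and Cd7 (2.36 ± 0.55, adjusted p = 0.0351) were named by the same rule, and 6 of 11 MHC class II genes had a called difference. The level of H2-Eb1 with a single Ezh2 allele also differed between the backgrounds, since it averaged 5.45 CPM in V617F Ezh2 +/- but 28.7 CPM in Ezh2 +/- libraries. In the same contrast with V617F 14 of 20 B cell genes and 25 of 44 interferon-stimulated genes rose in V617F Ezh2 -/- libraries, while the difference between the effects was called for 0 and 2 of them. For Cd27, which fell without V617F, the difference was 1.81 ± 0.61 (adjusted p = 0.115).

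**Figure D5:**
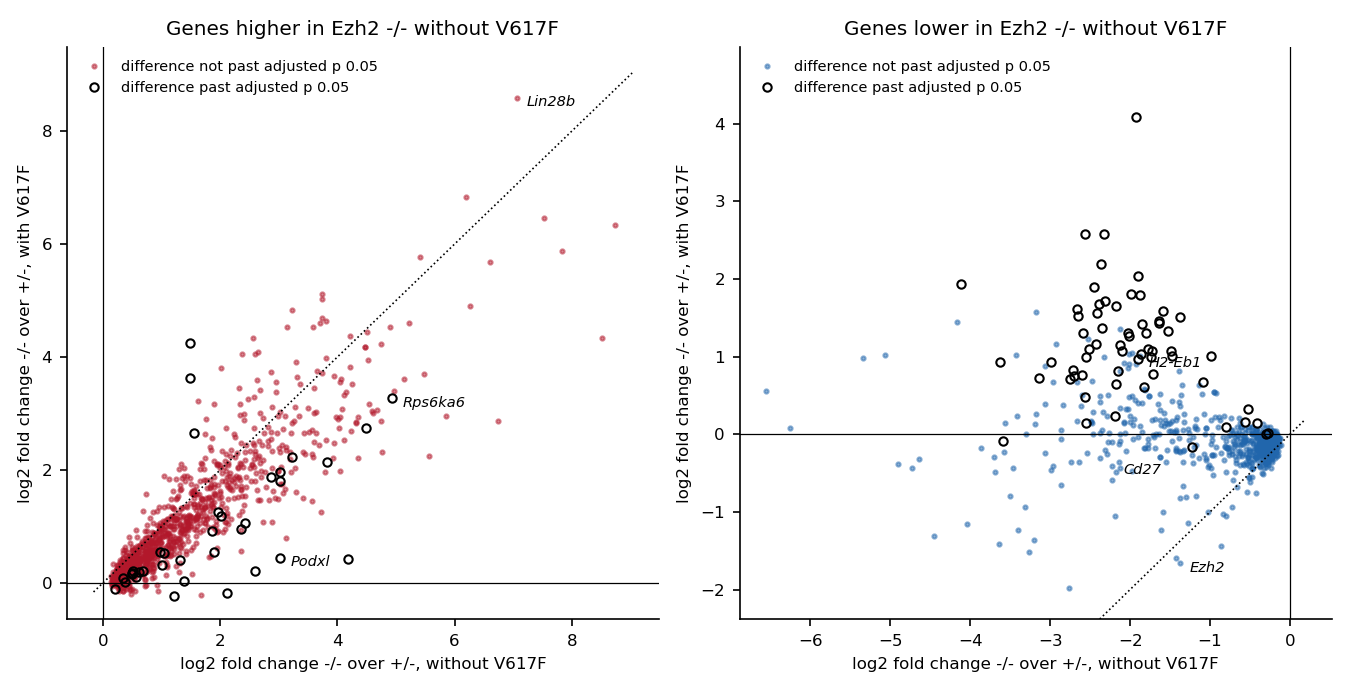
Log2 fold change of Ezh2 -/- over Ezh2 +/- with V617F against that without V617F, for the 995 genes that rose (left) and the 722 that fell (right) without V617F. The dotted line marks equal change, and open circles are the 35 and 62 genes whose difference was called. Increases follow the dotted line and lie mostly below it (medians 0.82 with and 1.13 without V617F), whereas most decreases gather around 0 with V617F. The genes were chosen by their call without V617F, which favours larger changes on that axis.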

How the data were processed

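RNA-seq of sorted MEPs was deposited by the authors as raw read counts per gene for 29 libraries. Per the submitters' processing notes STAR and mm9 were used; versions, counting program, strand setting and annotation: not given in the sources used here. In all, 18834 genes were listed, of which 62 had no name and took 0.884 to 2.68% of counts. Total counts were 31.6 to 59.4 M over all libraries.

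Counts were tested with edgeR 4.0.16 in R 4.3.3 (filterByExpr with a minimum count of 10 and total of 15, TMM factors 0.95 to 1.093, robust quasi-likelihood fit). The model held the 6 genotypes and the labelled sex over 29 libraries, left 22 residual degrees of freedom and gave a biological coefficient of variation of 18.1%. Tests were two-sided with Benjamini-Hochberg adjustment over 13928 genes at 0.05. An SE is the log2 fold change divided by the root of its F value. Levels printed as 0 are 0 counts. The procedure was tested on simulated data. Libraries of a group differed by more than sampling noise (lowest chi-square per degree of freedom 11.72 in the compared groups).

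Named genes were Ezh2, Pbx3, Lin28b and Jak2; the 12 largest changes in each direction that were called, had a mean log2 CPM of at least 2 (prior count 2) and did not overlap; the 8 highest genes switched on, and those switched off; up to 4 called members per direction of each list; and the 5 largest differences with V617F in each direction. Other members were named for their role, after their values were seen. Some listed members that the counts include are not reported here. The members and lists were chosen with earlier results of these data known. Alternatives were other scalings, DESeq2 1.42.0, other filters, fewer libraries, other covariates, a replicate block and leaving out each compared library. Promoter sequences came from RefSeq GRCm38.p6, matched by Entrez gene ID.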

Additional observations from a re-analysis of the deposited data

Results flagged for a closer look

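Of 250 sets of 4 libraries tested for a library far from the others of its group, 20 had one, and chance gives about 1 in 20. Among Ezh2 -/- libraries, replicate 2 was low for Podxl (74.7 CPM) and high for Fcer1a (0.0824 CPM) and Cpa3 (1.9 CPM), replicate 3 was low for Sfmbt2 (3.59 CPM), and replicate 4 was high for Yes1 (9.45 CPM), Grb10 (337 CPM) and Tcf7 (13 CPM). Among Ezh2 +/- libraries, replicate 5 was high for Hdgfl3 (4.82 CPM), Pcolce2 (0.371 CPM), Tnfrsf10b (2.32 CPM), Rgs18 (57.6 CPM), Pim1 (204 CPM), Ifi47 (63.1 CPM), Ddit3 (25.9 CPM) and Cdkn1a (14.2 CPM), and low for Phlda3 (3.14 CPM). Ezh2 +/- replicate 4 was low for H2-Eb1 (9.7 CPM) and Cd74 (36.2 CPM) and high for Hoxb2 (1.29 CPM), and replicate 2 was low for Tgif1 (45.1 CPM).

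The effect of losing the remaining Ezh2 allele differed with V617F, by the interaction test in edgeR, for 149 genes. Of the named genes the effect with V617F minus that without was -2.58 for Podxl, -2.40 for Fam124a, -1.68 for Hs6st2, -1.67 for Rps6ka6 and -1.47 for Cpd. It was 2.88 for H2-Aa, 2.87 for H2-Eb1, 2.80 for Cd74, 2.58 for Tcf7 and 2.36 for Cd7. Without Ezh2 +/- replicates 2 and 5, 3 of the 114 differences above 0 and 4 of the 35 below 0 were still called.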

How the results depend on the processing

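Between Ezh2 -/- and Ezh2 +/- without V617F, Ezh2, Pbx3 and Lin28b kept their direction and call in all 22 alternatives. Between Ezh2 +/- and Ezh2 +/+ Pbx3 kept its call in 12 of 21 and Ezh2 in 19. Medians of some lists changed sign: with lineage scores as covariates those of T and NK cell genes (-0.54, then 0.20), interferon-stimulated genes (-0.26, then 0.01), heme genes (0.08, then -0.04), erythroid genes (0.05, then -0.01), JAK-STAT5 targets (-0.03, then 0.16) and developmental regulators (-0.01, then 0.08). Without Ezh2 +/- replicates 2 and 5 those of interferon-stimulated genes (0.03), JAK-STAT5 targets (0.13), developmental regulators (0.33) and histone demethylases and activators (-0.04, then 0.05) did. The T and NK cell list is itself among the lineage scores, so the fit with these scores cannot measure the shift of that list. The 1717 genes called between Ezh2 -/- and Ezh2 +/- became 1016 with female libraries only, 2869 with lineage scores as covariates, 602 without Ezh2 +/- replicates 2 and 5, 624 without these and control replicate 5, and 1098 to 1744 without 1 library. With V617F the 3633 genes became 2151 with the compared groups only. The 149 differences (114 above 0) became 220 with lineage scores (34 above 0), 496 in DESeq2, 70 with a filter of 1 CPM, 92 with the compared groups only, 7 and 5 without the libraries just named, and 38 to 415 without 1 library. Between Ezh2 +/- and Ezh2 +/+ the 2 genes became 6 in DESeq2, 1 with library totals, with the compared groups only and without control replicate 5 and Ezh2 +/- replicates 2 and 5, and 1 to 2 without 1 library. edgeR called 0 there with female libraries only (114 genes at an unadjusted p under 0.05) and without Ezh2 +/- replicates 2 and 5 (528 genes). Between Ezh2 -/- and Ezh2 +/+ the 3307 became 1681 with female libraries only and 2096 to 3457 without 1 library. Some of these fits held fewer libraries and others held all of them, and the cause of these shifts was not tested.

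Replicate numbers 1, 2 and 4 are shared, but deviations of same-numbered libraries correlated at 0.03, 0.06 and 0.08 across genes, so the numbers were not taken as pairs. With a replicate block 1469 genes were called between Ezh2 -/- and Ezh2 +/- (953 higher, 516 lower), 60 for the difference with V617F and 1 between Ezh2 +/- and Ezh2 +/+. With the block in the 8 compared libraries 1449 were called. Counts below the floor of 3 per library limit Cdkn2a, Igf2bp3, Hba-x and Bmp4 in Ezh2 +/- libraries.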
